A study of Sus scrofa with 12 samples.

Results

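The matrix proteases and their inhibitors were followed in mRNA libraries of porcine mesenchymal stem cells (MSCs) and of the extracellular vesicles (EVs) that the same cells released. The members were all entries of the mRNA table whose symbol names a matrix metalloproteinase (MMP), a tissue inhibitor of metalloproteinases (TIMP), an ADAM, ADAMTS or ADAMTSL gene, a cathepsin (CTS) or a serpin, together with RECK and PI15. This gave 98 symbols of the 13363 in the table, each represented by its most-read entry. Reads were found for 74 of these 98 symbols, as against 10136 of the 13363, and 54 passed the filter on low counts and were tested.

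The MSCs came from the abdominal fat of 3 female domestic pigs aged 3 months, and the labels name no treatment and no genetic change. The fat was digested with collagenase, and the cells were kept in medium with platelet lysate and taken at passage 3. EVs were pelleted from the culture supernatants by ultracentrifugation, so that each pig gave 1 MSC library and 1 EV library. Whether the EVs also held particles of the lysate was not tested. The reads counted on genes were 11332330 to 12276855 in the 3 MSC libraries and 10429085 to 12151384 in the 3 EV libraries.

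Cells remodel the matrix around them with secreted and membrane-bound proteases, which are made as inactive precursors and held in check by dedicated inhibitors. MMPs cleave collagens and other matrix proteins and are blocked by TIMPs and by the membrane-anchored RECK. ADAMs release the outer domains of cell-surface proteins, ADAMTS proteases cut proteoglycans and procollagens, cathepsins work mainly in lysosomes, and serpins trap serine proteases such as the plasminogen activators. Stromal cells of fat use these enzymes during tissue growth and repair.

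Levels are given as reads scaled to a common library size (CPM) with factors from the trimmed mean of M-values (TMM), always in the order of pigs 1, 2 and 3. They are shares of a library, so fewer vesicles that hold a transcript and fewer copies in each vesicle cannot be told apart, and the same holds for cells. The libraries within a group differ by animal, and n is 3 per group throughout. The log2 ratio of a gene is its fitted log2 fold change, EVs over MSCs, with its standard error (SE). Its adjusted p-value is the Benjamini-Hochberg value over the 12392 entries that edgeR's quasi-likelihood fit tested. Where the fit also holds the pig of each library as a block, it is called the blocked fit.

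The symbols did not all have a usable entry. Of the 24 members without any read, 13 had at least 90% of their span covered by another entry of the table, and the same was true of 28 of the 74 members with reads and of 19 of the 54 tested. Reads in such a span may have been split or set aside, so those levels are uncertain. At 0 reads stood MMP3, MMP7, MMP9, MMP20, TIMP2, CTSH, CTSZ, ADAMTS19, 6 ADAMs (ADAM2, ADAM3A, ADAM18, ADAM21, ADAM22 and ADAM30) and 10 serpins. Where the reads of a gene are counted to its entry, 0 reads allow up to 3 reads, or 0.232 to 0.303 CPM, in a library. No such limit can be set for the 13 members with covered spans. For the gelatinases MMP2 and MMP9, the stromelysin MMP3 and the inhibitor TIMP2, the whole span was covered by other entries, and TIMP3 and TIMP4 had no entry under these symbols. MMP2 was listed with 34 reads in all 6 libraries together, and the collagen-degrading cathepsin CTSK with 33.

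Most of the family lay close to equality between vesicles and cells, and a few members lay far from it. Of the 54 members tested, 38 lay within 2-fold, and their median log2 ratio was -0.02, the same to 2 decimals as over all entries tested. By the limits of the study, a fold change over 2 and an unadjusted p-value under 0.05, here from edgeR and not from the test that the study used, 8 members (14.8%) were higher in EVs, where 5.55% of all entries were, and 4 members (7.41%) were lower, where 3.57% of all entries were. The 8 were MMP13, MMP27, MMP16, MMP25, ADAMTS5, ADAMTS6, ADAMTS12 and PI15, and the 4 were MMP15, ADAM15, ADAM19 and SERPINE2. Of these, MMP13, MMP16, MMP27 and PI15 reached the count filter in all EV libraries but not in all MSC libraries.

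After adjustment by edgeR, 0 members were higher and 0 lower, as were 0% of all entries in either direction. An unadjusted edgeR p-value under 0.05 was found for 15 of the 54 members tested, as against 1978 of all 12392 entries tested. The lowest edgeR adjusted p of a member was 0.206. In the blocked fit, 5 members (9.26%) were higher past the adjusted threshold, where 0.492% of all entries were, namely MMP13, MMP27, ADAMTS5, ADAMTS6 and PI15. SERPINB2 alone (1.85%) was lower, where 0.605% of all entries were. It reached the count filter in all MSC libraries but not in all EV libraries, while MMP13, MMP27 and PI15 reached it in all EV libraries but not in all MSC libraries. By DESeq2, MMP13, MMP25, ADAMTS5, ADAMTS6 and PI15 were higher past the adjusted threshold, where 1.86% of all entries were, and SERPINE2 was lower, where 1.42% were. For each of these 8 genes, the adjusted p-value was highest in the edgeR fit without the EV library of pig 2. There it was 0.651 for SERPINB2 and 0.630 for the others. The value of 0.630 was not particular to these genes, since ADAM15, ADAM19 and MMP16 had it too in that fit. In the blocked fit without pig 2, MMP13, ADAMTS5, ADAMTS6, PI15 and SERPINB2 were still past the adjusted threshold.

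**Figure D1:**
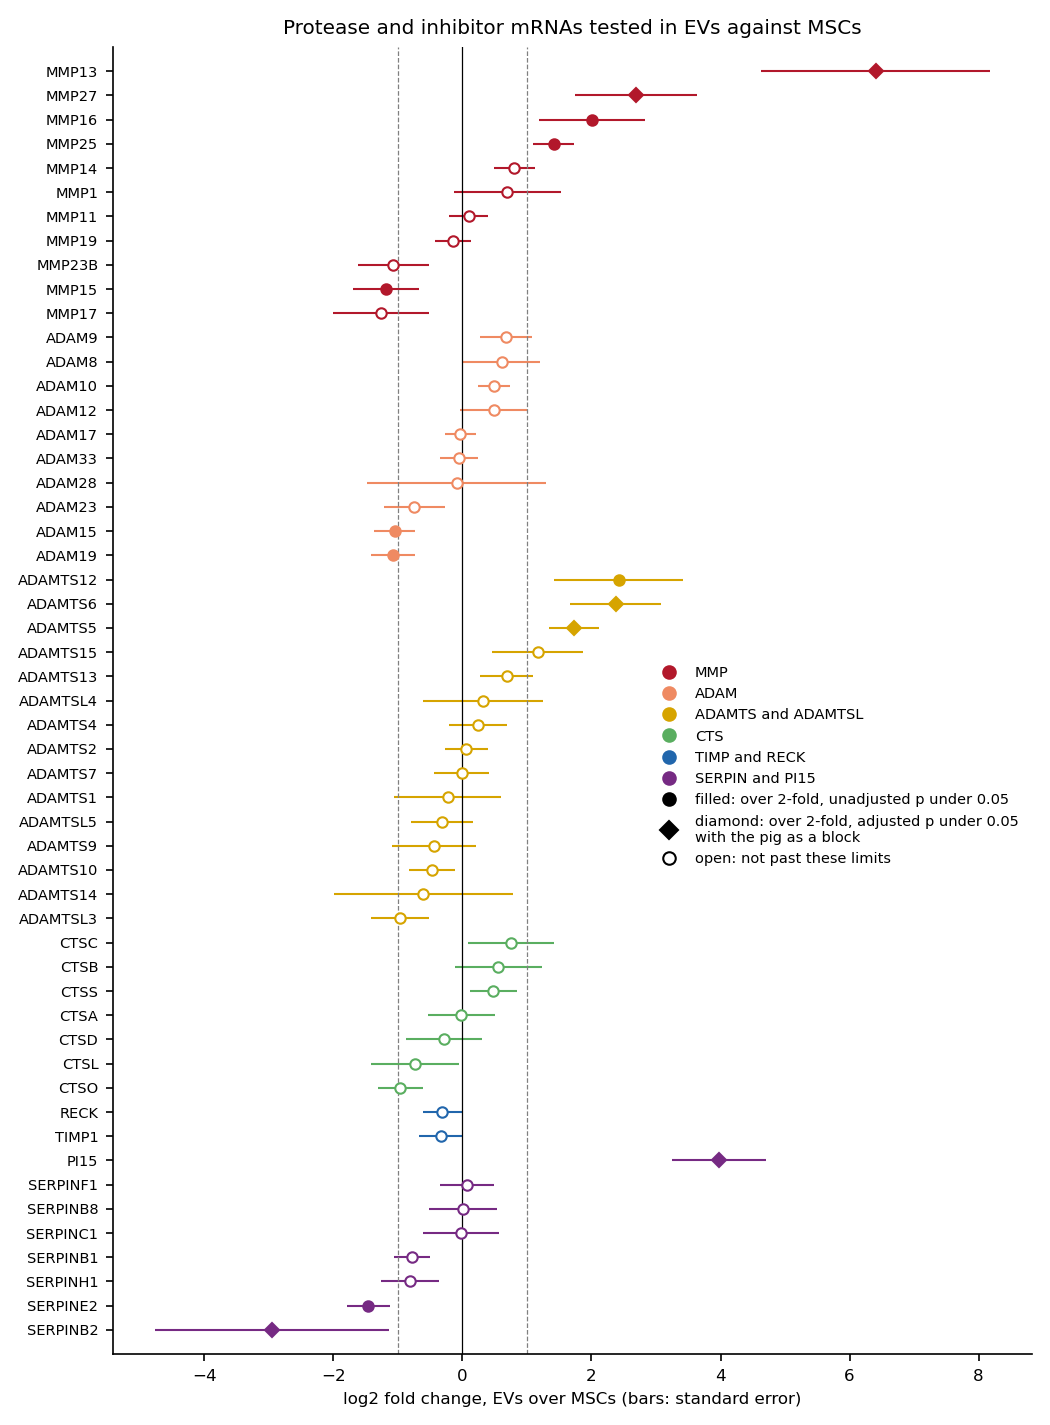
Log2 ratio (log2 fold change, EVs over MSCs) of 53 of the 54 members tested, grouped by class, with bars of 1 SE from edgeR and dashed lines at 2-fold. Filled circles are past the unadjusted limits and diamonds past the adjusted threshold in the blocked fit. Most genes lie between the dashed lines, MMP13 and PI15 stand furthest to the right at 6.40 and 3.98, and SERPINB2 stands furthest to the left at -2.95.

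The MMPs held the largest log2 ratio among the members tested, that of MMP13. Of 18 listed, 11 were tested, with a median log2 ratio of 0.70. Past the unadjusted limits, 4 (36.4%) were higher, where 5.55% of all entries were, and 1 (9.09%) was lower, where 3.57% of all entries were. Of the 4, MMP13, MMP16 and MMP27 reached the count filter in all EV libraries but not in all MSC libraries.

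MMP13, a collagenase that cleaves fibrillar collagens and lies on chromosome 9 from 37493636 to 37504552 (susScr3), had 0.310, 4.59 and 0.763 CPM in MSCs and 24.5, 439 and 7.39 CPM in EVs. All EV libraries lay above all MSC libraries, and the EVs of pig 2 stood far above those of the other pigs. Read numbers were 4, 48 and 9 for the cells and 290, 5615 and 73 for the vesicles. The EV level was 79.0, 95.5 and 9.67 times the MSC level of the same pig. The log2 ratio was 6.40 (SE 1.78, edgeR adjusted p = 0.228) and was 3.06 without the EV library and 8.18 without the MSC library of pig 2. In the blocked fit it was 5.58 (edgeR adjusted p = 0.0116), and that call held when any of the 3 pigs was left out. In the EVs of pig 2, MMP13 took 29.4% of all reads on MMP genes.

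MMP27, a little-studied relative of the stromelysins on chromosome 9 from 37312453 to 37326432, had 0.232, 0.670 and 1.61 CPM in MSCs and 1.18, 3.98 and 11.2 CPM in EVs. The groups overlapped, but in each pig the EVs were above the MSCs, and both groups had their highest value in pig 3. The read numbers were small, at 3, 7 and 19 in the cells and 14, 51 and 111 in the vesicles. Its log2 ratio was 2.69 (SE 0.95, edgeR adjusted p = 0.269), and its edgeR adjusted p in the blocked fit was 0.0428, a call that held without pig 1 but not without pig 2 or pig 3. The unadjusted call was lost without the EV library of pig 3 (1.62) and without the MSC library of pig 1 (2.23) or pig 2 (2.56), and the ratio was 3.58 without the MSC library of pig 3.

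MMP25 and MMP16 are membrane-type MMPs, held at the cell surface. MMP25, on chromosome 3 from 40557830 to 40571815, had 25.3, 24.4 and 26.7 CPM in MSCs and 88.0, 75.5 and 40.4 CPM in EVs, so the groups did not overlap and the MSCs were close to each other. Its log2 ratio was 1.42 (SE 0.32, edgeR adjusted p = 0.212; DESeq2 adjusted p = 0.0109), but its span lies wholly inside that of another entry on the same strand. MMP16, on chromosome 4 from 53437527 to 53598063, had 2.01, 0.670 and 2.63 CPM in MSCs and 2.62, 3.20 and 15.9 CPM in EVs. Its high value was that of the EVs of pig 3, and its log2 ratio of 2.01 (SE 0.82, edgeR adjusted p = 0.298) was 0.71 without that library. Its unadjusted call was also lost without the MSC library of pig 1 (2.11) or pig 2 (1.63).

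MMP15, another membrane-type MMP, lay on the other side. It had 17.2, 16.0 and 43.8 CPM in MSCs and 16.4, 6.56 and 10.8 CPM in EVs (chromosome 6 from 17937500 to 17958894), and its span is covered by an entry on the opposite strand that holds more reads. The MSCs of pig 3 were highest, and the log2 ratio of -1.19 (SE 0.51, edgeR adjusted p = 0.311) was -0.57 without them. The unadjusted call was also lost without the EV library of pig 2 (-0.90) or pig 3 (-1.16).

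MMP14, the membrane-type MMP that activates the MMP2 precursor, had 122, 199 and 156 CPM in MSCs and 238, 379 and 216 CPM in EVs. All EVs lay above all MSCs, but the log2 ratio of 0.81 (SE 0.31, edgeR adjusted p = 0.286) is under 2-fold. MMP1, the interstitial collagenase, had 10.2, 37.4 and 7.89 CPM in MSCs and 20.9, 61.0 and 7.89 CPM in EVs, with a log2 ratio of 0.70 (SE 0.82). Pig 2 was highest in both groups, and in pig 3 the groups had the same value to 3 digits. The ratio of MMP1 turned to -0.38 without the EV library of pig 2 and was 1.73 without the MSC library of that pig.

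The MMPs with the highest level per kilobase were not among those past the limits in the edgeR fit without the block. MMP23B, an unusual MMP anchored by its N-terminal end, had 255, 562 and 454 CPM in MSCs and 243, 68.0 and 294 CPM in EVs. Its log2 ratio was -1.07 (SE 0.55, edgeR adjusted p = 0.358). MMP23B was past the unadjusted limits by limma on log2(RPKM + 1) and on log2(RPKM + 0.1), and in the blocked fit without pig 1 or without pig 3. MMP19, a secreted MMP with a broad range of substrates, had 280, 432 and 296 CPM in MSCs and 341, 328 and 245 CPM in EVs, with a log2 ratio of -0.14 (SE 0.28). MMP11, or stromelysin 3, was at 0.10 and MMP17, a membrane-type MMP, at -1.26 on the log2 scale with SEs of 0.31 and 0.74.

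MMP7, MMP20, MMP27, MMP8, MMP1, MMP3, MMP12 and MMP13 lie side by side on chromosome 9 within 371.5 kb (37133037 to 37504552), and 5 of these 8 had reads. Of the 5, MMP8, MMP1 and MMP13 had their highest level in the EVs of pig 2. MMP8, the neutrophil collagenase, had 33 reads there and 0 to 3 in each other library, below the filter on low counts. MMP12, the macrophage elastase, had 12 of its 25 reads in the MSCs of pig 3. MMP27 was highest in the EVs of pig 3, so the neighbours did not share a highest library.

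**Figure D2:**
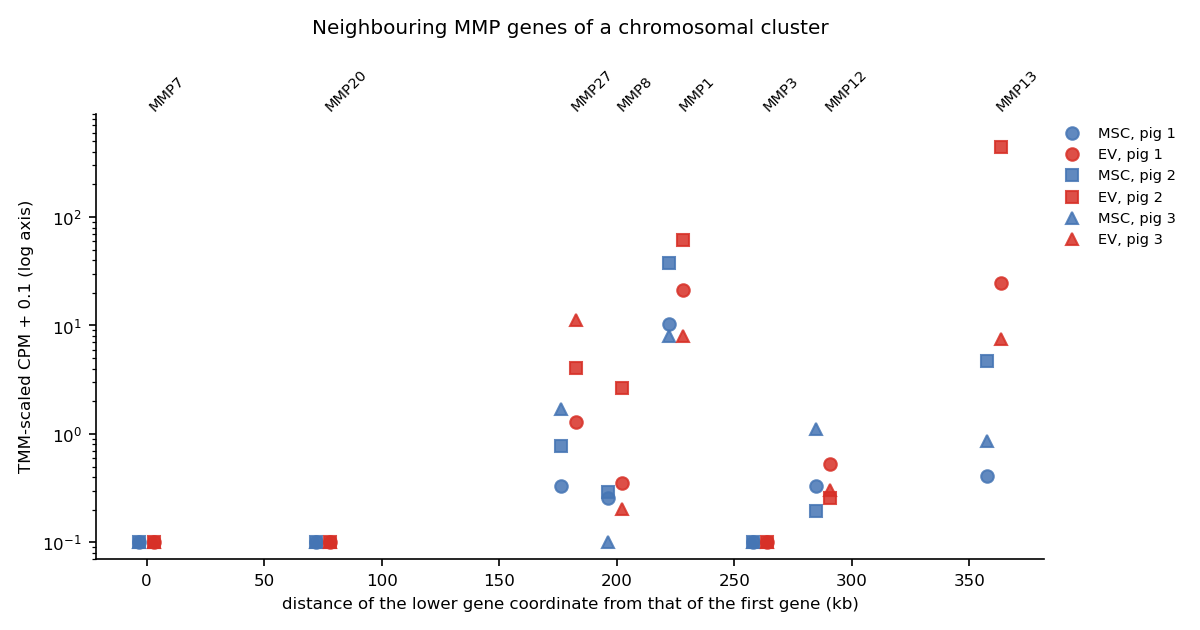
TMM-scaled CPM plus 0.1 (log axis) of the 8 neighbouring MMP genes of chromosome 9 in each library, placed by the distance in kb of the lower coordinate of each gene from that of MMP7. Circles, squares and triangles are pigs 1, 2 and 3. MMP13, at the right end, is the gene with the widest gap between EVs and MSCs, and MMP7, MMP20 and MMP3 lie at the bottom with 0 reads.

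The direct inhibitors of the MMPs did not pass the limits. TIMP1, which inhibits most secreted MMPs and had the highest mean level per kilobase of the family, had 657, 352 and 334 CPM in MSCs and 317, 340 and 406 CPM in EVs. The MSCs of pig 1 stood apart, and the other 5 libraries lay between 317 and 406 CPM. Its log2 ratio was -0.34 (SE 0.33, edgeR adjusted p = 0.596), and it was 0.04 without the MSC library of pig 1. The span of TIMP1 is covered by an entry on the opposite strand with 137 reads in all. RECK, a membrane-anchored inhibitor of several MMPs, had 105, 52.2 and 106 CPM in MSCs and 69.6, 65.7 and 76.8 CPM in EVs, with a log2 ratio of -0.31 (SE 0.31).

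Of the 19 ADAM genes, 10 were tested. The median log2 ratio was -0.04. Of the 10, 2 were lower in EVs past the unadjusted limits, where 3.57% of all entries were. None was higher, where 5.55% of all entries were. ADAM19, a sheddase of neuregulins on chromosome 16 from 71570441 to 71669557, had 187, 157 and 239 CPM in MSCs and 94.3, 55.5 and 126 CPM in EVs. ADAM15, which binds integrins through its disintegrin domain and lies on chromosome 4 from 103518217 to 103529707, had 26.6, 44.6 and 26.2 CPM in MSCs and 19.8, 13.0 and 14.2 CPM in EVs. In both genes, every EV library was below every MSC library. The log2 ratio of ADAM19 was -1.08 (SE 0.34, edgeR adjusted p = 0.249), and its unadjusted call was lost without the EV library of pig 2 (-0.80) or the MSC library of pig 3 (-0.91). That of ADAM15 was -1.05 (SE 0.32, edgeR adjusted p = 0.245), and its call was lost without the EV library of pig 2 (-0.93) or pig 3 (-0.98) or the MSC library of pig 2 (-0.75).

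The main sheddases did not pass the limits. ADAM10, which cleaves Notch and many other surface proteins, had 44.5, 29.2 and 40.7 CPM in MSCs and 56.7, 57.5 and 46.8 CPM in EVs, with a log2 ratio of 0.49 (SE 0.25, edgeR adjusted p = 0.351). ADAM17, the converting enzyme of tumour necrosis factor, had 24.6, 33.6 and 27.9 CPM in MSCs and 25.1, 28.8 and 30.3 CPM in EVs, with a log2 ratio of -0.03 (SE 0.24). The EVs were above all MSCs for ADAM10 and lay within their range for ADAM17, and the spans of both genes are covered by another entry that holds reads.

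The ADAMs with the highest levels per kilobase were ADAM33, ADAM9 and ADAM12. ADAM33, known from airway disease, had 181, 266 and 337 CPM in MSCs and 286, 211 and 258 CPM in EVs, with a log2 ratio of -0.05 (SE 0.29). ADAM9, a widely expressed sheddase, had 246, 78.2 and 177 CPM in MSCs and 227, 304 and 271 CPM in EVs, with a log2 ratio of 0.68 (SE 0.41). That ratio was 1.06 and past the unadjusted limits without the MSC library of pig 1, and 0.34 without that of pig 2. ADAM12, a marker of activated mesenchymal cells, had 177, 41.9 and 125 CPM in MSCs and 151, 105 and 226 CPM in EVs, with a log2 ratio of 0.49 (SE 0.52). In all 3 the groups overlapped. ADAM8, ADAM28 and ADAM23 had log2 ratios of 0.61, -0.09 and -0.75, and ADAM7, ADAM11 and ADAM32 did not pass the filter on low counts.

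The ADAMTS genes, of which 15 of 20 were tested (ADAMTSL genes included), had a median log2 ratio of 0.06. Of the 15, 3 were higher in EVs past the unadjusted limits, where 5.55% of all entries were. None was lower, where 3.57% of all entries were. ADAMTS5, an aggrecanase that cuts the large proteoglycans aggrecan and versican, lies on chromosome 13 from 200405037 to 200449758. It had 65.5, 26.9 and 26.9 CPM in MSCs and 136, 143 and 117 CPM in EVs, so the EVs were all above the MSCs and close to each other. The log2 ratio was 1.73 (SE 0.39, edgeR adjusted p = 0.212, 0.0405 in the blocked fit and 0.00550 by DESeq2), and it ranged from 1.51 to 2.29 when each library was left out, with the unadjusted call kept in all 6 fits.

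ADAMTS6, a relative of ADAMTS10 that acts on microfibrils and lies on chromosome 16 from 46990247 to 47281159, had 8.21, 1.34 and 3.65 CPM in MSCs and 38.5, 19.4 and 10.9 CPM in EVs. The EVs were all above the MSCs. Its log2 ratio was 2.37 (SE 0.71, edgeR adjusted p = 0.241, 0.0411 in the blocked fit and 0.0183 by DESeq2). It ranged from 1.78 without the EV library of pig 1 to 3.19 without the MSC library of that pig and kept the unadjusted call in all 6 fits without a library, but in the blocked fit it was not past the adjusted threshold when pig 1 was left out.

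ADAMTS12, on chromosome 16 from 20237302 to 20549746, rested on a lone library. It had 4.18, 4.31 and 8.06 CPM in MSCs and 5.66, 7.03 and 76.3 CPM in EVs, and its log2 ratio of 2.42 (SE 1.00, edgeR adjusted p = 0.300) was 0.20 without the EVs of pig 3. The unadjusted call was also lost without the MSC library of pig 1 (2.25), pig 2 (2.27) or pig 3 (2.79). A comparable spread was seen in ADAMTS8, an inhibitor of vessel growth, which had 7, 4 and 10 reads in the MSC libraries, had 6, 405 and 1 reads in the EV libraries, and did not pass the filter on low counts. Its neighbour ADAMTS15, 17.3 kb away, had 0.387, 0.766 and 2.38 CPM in MSCs and 2.03, 4.06 and 1.82 CPM in EVs, with a log2 ratio of 1.16 (SE 0.71).

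The most abundant ADAMTS genes lay near equality. ADAMTS2, which removes the N-terminal propeptide of fibrillar procollagens, had 913, 910 and 1336 CPM in MSCs and 977, 839 and 1471 CPM in EVs, and its log2 ratio was 0.06 (SE 0.33). The aggrecanase ADAMTS4 had 312, 643 and 270 CPM in MSCs and 655, 524 and 273 CPM in EVs, with a log2 ratio of 0.24 (SE 0.45). ADAMTS7, which cleaves cartilage oligomeric matrix protein, had 373, 825 and 429 CPM in MSCs and 575, 717 and 322 CPM in EVs, with a log2 ratio of -0.01 (SE 0.42). For none of the 3 did the groups separate.

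ADAMTS1, a versican-cutting protease 269.1 kb from ADAMTS5, had 41.0, 6.99 and 8.65 CPM in MSCs and 29.7, 13.7 and 4.86 CPM in EVs, with a log2 ratio of -0.23 (SE 0.83). That ratio ran from -1.02 without the EV library of pig 1 to 1.04 without the MSC library of pig 1, and it was also positive without the EV library of pig 3 (0.20). The other 6 tested were ADAMTS9, ADAMTS10, ADAMTS13, ADAMTS14, ADAMTSL3 and ADAMTSL5, between -0.97 and 0.68 on the log2 scale. ADAMTSL4, a microfibril protein without protease activity, had 71.8, 658 and 84.0 CPM in MSCs and 103, 360 and 552 CPM in EVs, so that its spread between pigs was wider than its log2 ratio of 0.32 (SE 0.93).

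**Figure D3:**
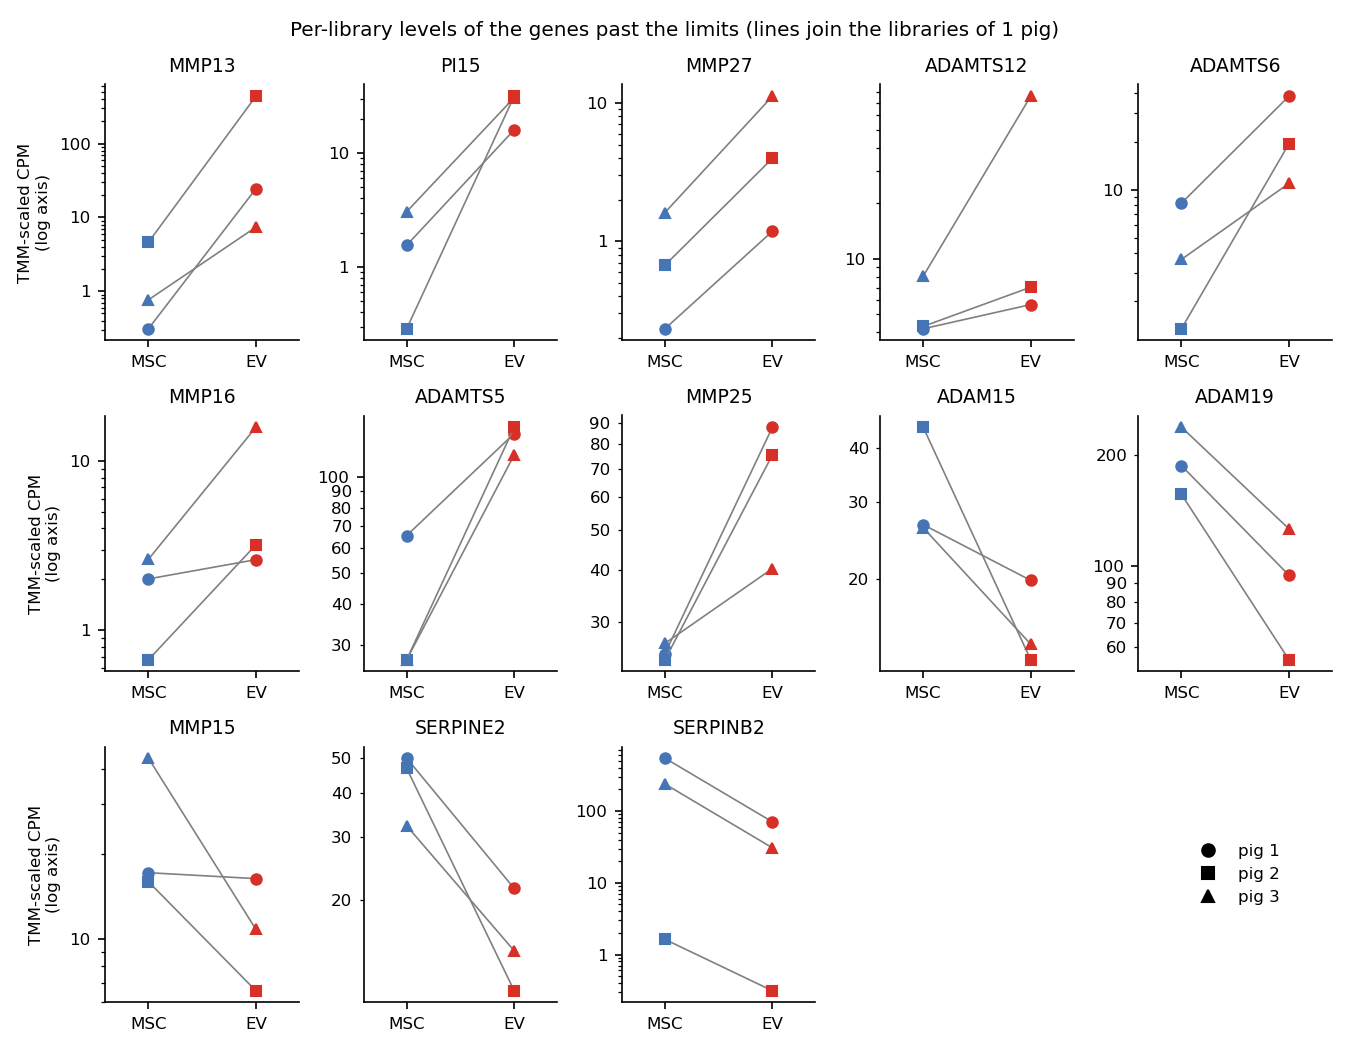
TMM-scaled CPM (log axes, a scale for each gene) of the 12 members past the unadjusted limits and of SERPINB2, with lines that join the MSC and EV libraries of each pig. For PI15, MMP13, ADAMTS5, ADAMTS6 and MMP25 the EVs of every pig are above all MSCs, for ADAMTS12 and MMP16 the EVs of pig 3 stand alone, and for SERPINB2 the lines run parallel at very different levels.

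Among the cathepsins, 7 of 12 were tested, none was past the limits without the block, and the median log2 ratio was -0.02. CTSD, the main aspartic protease of lysosomes, had 107, 502 and 159 CPM in MSCs and 198, 301 and 132 CPM in EVs, with a log2 ratio of -0.28 (SE 0.59). CTSC, which activates granule proteases, had 157, 415 and 143 CPM in MSCs and 271, 781 and 149 CPM in EVs, with a log2 ratio of 0.75 (SE 0.67). CTSB, a cysteine protease also found outside lysosomes, had 46.7, 167 and 68.7 CPM in MSCs and 66.3, 276 and 72.0 CPM in EVs, with a log2 ratio of 0.55 (SE 0.67). In all 3 genes pig 2 was highest in both groups, and in CTSC and CTSB the EVs were above the MSCs in each pig. All 3 log2 ratios changed sign without 1 library of pig 2. Without its EV library those of CTSC and CTSB were -0.19 and -0.45, and without its MSC library that of CTSD was 0.66.

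CTSL, a cysteine protease that degrades elastin and collagens, went the other way in pigs 2 and 3. It had 219, 166 and 290 CPM in MSCs and 264, 27.9 and 114 CPM in EVs, with a log2 ratio of -0.73 (SE 0.68). In the blocked fit it was -1.22 (SE 0.50, edgeR adjusted p = 0.221) and past the unadjusted limits, and it was past the adjusted threshold when pig 1 was left out of that fit. Without the block it was -1.67 and past the unadjusted limits without the EV library of pig 1, and -0.24 without that of pig 2. CTSS, the elastin-degrading cathepsin of antigen-presenting cells, had 4.18, 5.74 and 4.83 CPM in MSCs and 8.53, 7.42 and 4.55 CPM in EVs (log2 ratio 0.48, SE 0.36). For CTSO every EV library was below every MSC library, at 42.8, 20.9 and 26.7 CPM in MSCs and 19.3, 11.9 and 15.2 CPM in EVs. Its log2 ratio of -0.97 (SE 0.35, edgeR adjusted p = 0.275) stopped short of 2-fold. CTSO was past the unadjusted limits without the EV library of pig 1, without the MSC library of pig 2 or pig 3, and with the trend on gene length removed. The span of CTSO is covered by another entry on the same strand with 205 reads in all. CTSA, the protective lysosomal carboxypeptidase, was at -0.02. CTSK, CTSV and CTSW did not pass the filter on low counts.

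Among the serpins and PI15, PI15 was higher in EVs and SERPINB2 lower in the blocked fit. Of 26 listed, 9 were tested, with a median log2 ratio of -0.03. Past the unadjusted limits, 1 (11.1%) was higher, where 5.55% of all entries were, and 1 (11.1%) was lower, where 3.57% of all entries were. PI15, a secreted protein of the CRISP family that weakly inhibits trypsin and lies on chromosome 4 from 66776708 to 66802989, had 1.55, 0.287 and 3.05 CPM in MSCs and 16.0, 31.5 and 30.6 CPM in EVs. Read numbers were 20, 3 and 36 for the cells and 189, 403 and 302 for the vesicles, and the groups did not overlap. The fold change was 15.7, or 3.98 on the log2 scale (SE 0.72, edgeR adjusted p = 0.206, 5.34e-07 by DESeq2). It kept the unadjusted call in each of the 6 fits without a library, where its log2 value ranged from 3.50 to 4.77 (the latter without the MSC library of pig 3), and its call in the blocked fit held when any of the 3 pigs was left out.

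SERPINB2, the plasminogen activator inhibitor that stays mostly inside cells, lies on chromosome 1 from 175502733 to 175517283. It had 546, 1.63 and 238 CPM in MSCs and 70.6, 0.312 and 30.7 CPM in EVs. Pig 2 was far below the other pigs in both groups, with 17 reads in MSCs and 4 in EVs, so the groups overlapped. Within each pig, however, the MSCs were above the EVs by much the same factor, 7.74, 5.21 and 7.77 times. The log2 ratio was -2.95 (SE 1.82, edgeR adjusted p = 0.417) without the block and -2.86 (SE 0.34, edgeR adjusted p = 0.0116) in the blocked fit, and the second call held when any of the 3 pigs was left out. SERPINB8, its tested neighbour in the serpin B cluster of chromosome 1, was at 0.01 (SE 0.53) on the log2 scale.

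SERPINE2, or protease nexin 1, inhibits thrombin and urokinase and lies on chromosome 15 from 139183910 to 139249592. It had 50.1, 46.9 and 32.3 CPM in MSCs and 21.5, 11.1 and 14.4 CPM in EVs, with every EV library below every MSC library. Its log2 ratio was -1.46 (SE 0.33, edgeR adjusted p = 0.212, 0.0602 in the blocked fit and 0.00940 by DESeq2), and the unadjusted call held in all 6 fits without a library. Its span lies inside other entries on the same strand, the most-read of which had 1 read.

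SERPINH1, the collagen chaperone of the endoplasmic reticulum, had the highest level per kilobase of the serpins, with 501, 1477 and 838 CPM in MSCs and 493, 378 and 735 CPM in EVs. It was lower in the EVs of each pig, but by little in pigs 1 and 3, and its log2 ratio was -0.81 (SE 0.45, edgeR adjusted p = 0.386). Without the MSC library of pig 1 the ratio was -1.12 and past the unadjusted limits, and without that of pig 2 it was -0.32. SERPINB1, an inhibitor of neutrophil elastase, had 65.5, 41.4 and 37.8 CPM in MSCs and 29.0, 24.9 and 30.5 CPM in EVs. Its groups did not overlap, with a log2 ratio of -0.78 (SE 0.28, edgeR adjusted p = 0.275). The span of SERPINB1 is covered by another entry on the same strand with 1716 reads in all, so its level is uncertain. SERPINF1, an inhibitor of vessel growth, was near equality at 1.86, 2.39 and 3.73 CPM in MSCs and 3.29, 2.42 and 2.63 CPM in EVs, and SERPINC1, or antithrombin, was at -0.03 on the log2 scale. SERPING1, the inhibitor of complement C1, had 17 reads in all, and 6 further serpins had 2 to 25 reads.

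**Figure D4:**
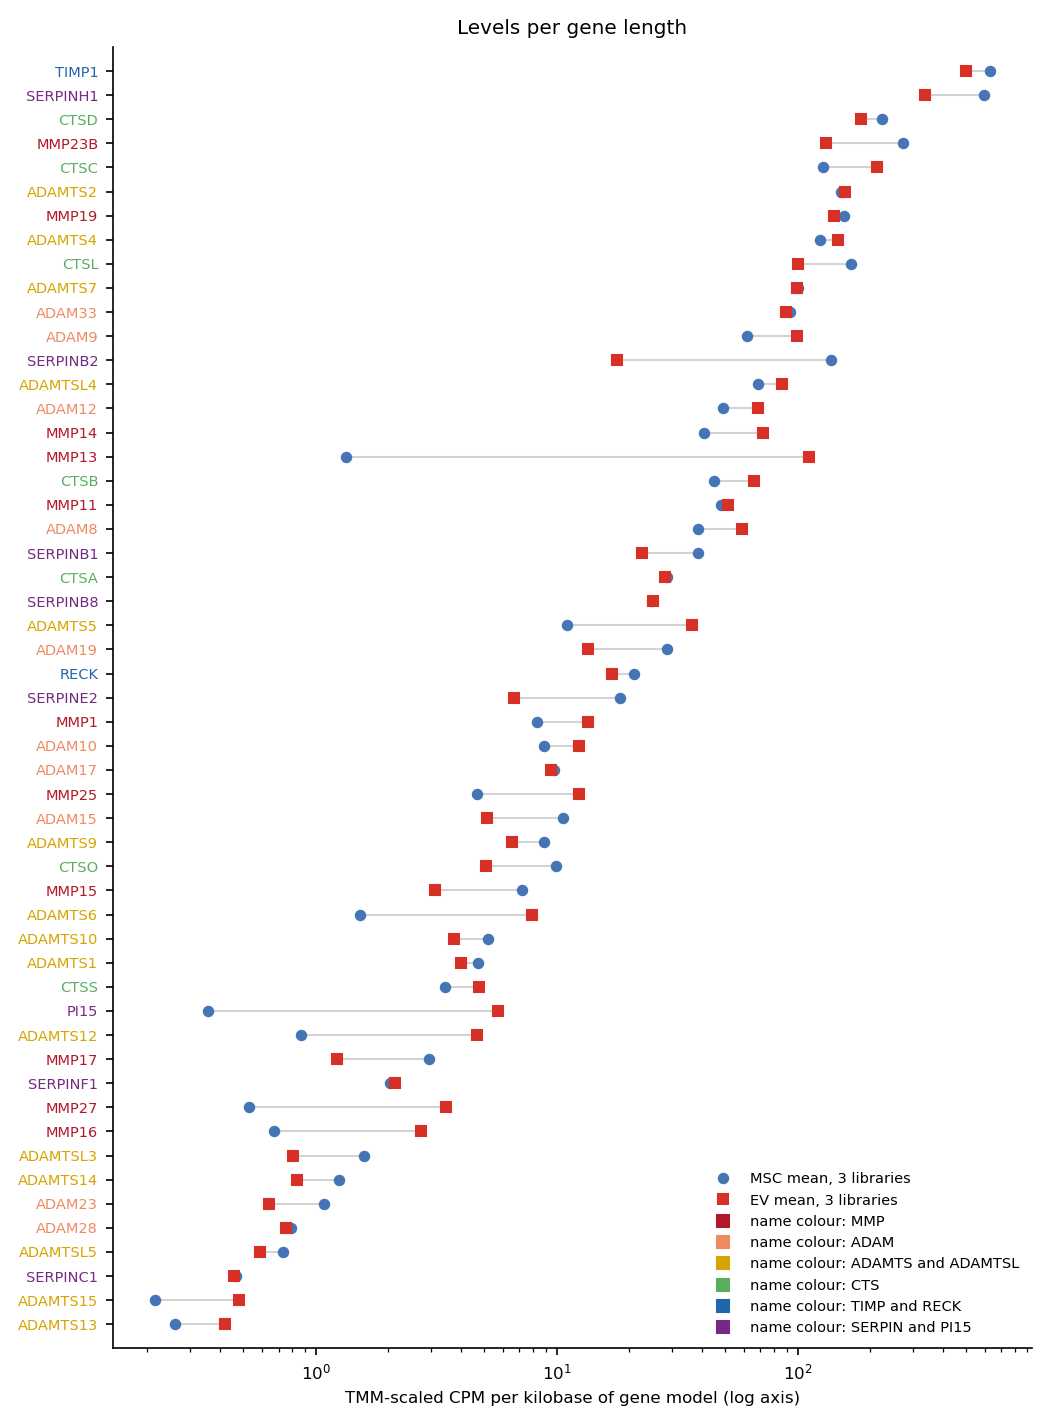
Mean TMM-scaled CPM per kilobase of gene model (log axis) of 53 of the 54 members tested, in MSCs (blue circles) and EVs (red squares), ordered by the mean of all libraries. TIMP1 and SERPINH1 lead in both groups, and the longest grey lines belong to MMP13, PI15, SERPINB2, MMP27, ADAMTS12 and ADAMTS6.

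Per kilobase of gene model, TIMP1 and SERPINH1 had the highest levels in both groups. TIMP1 had a mean of 630 CPM per kilobase in MSCs and 499 in EVs, and SERPINH1 had 594 and 339. MMP23B (275) and CTSD (224) came next in MSCs, and CTSC (214) and CTSD (184) in EVs. MMP13 went from 1.34 CPM per kilobase in MSCs to 111 in EVs, a mean set largely by pig 2. ADAMTS5 went from 11.0 to 36.5 and PI15 from 0.357 to 5.70 CPM per kilobase.

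Summed over a class, the levels mostly overlapped between groups. The 98 members took 0.702% to 0.771% of the reads of the MSC libraries and 0.619% to 0.808% of those of the EV libraries. The serpins and PI15 together had 742, 1075 and 769 CPM per kilobase in MSCs and 429, 298 and 684 in EVs, and SERPINH1 made up 36.9% to 81.3% of the reads of that class in the 6 libraries. SERPINB2 took 40.2%, 0.0896% and 17.6% of them in MSCs and 9.24%, 0.0595% and 2.31% in EVs. In pig 1 SERPINH1 had 317 CPM per kilobase in MSCs and 312 in EVs, while SERPINB2 had 287 and 37.1. In pig 2 SERPINH1 had 934 and 239 CPM per kilobase. The ADAM genes had 312, 274 and 321 CPM per kilobase in MSCs and 340, 360 and 374 in EVs. The means of ADAM9, ADAM12 and ADAM8 went from 61.9, 48.9 and 38.5 CPM per kilobase in MSCs to 99.0, 68.6 and 58.7 in EVs. That of ADAM19 went from 28.6 to 13.5, and only 4 of the 10 ADAMs tested had a log2 ratio above 0. In the serpin and ADAM sums the groups did not overlap, in opposite directions, while the MMP, ADAMTS, cathepsin, and TIMP and RECK sums did overlap. No test was made on these sums.

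**Figure D5:**
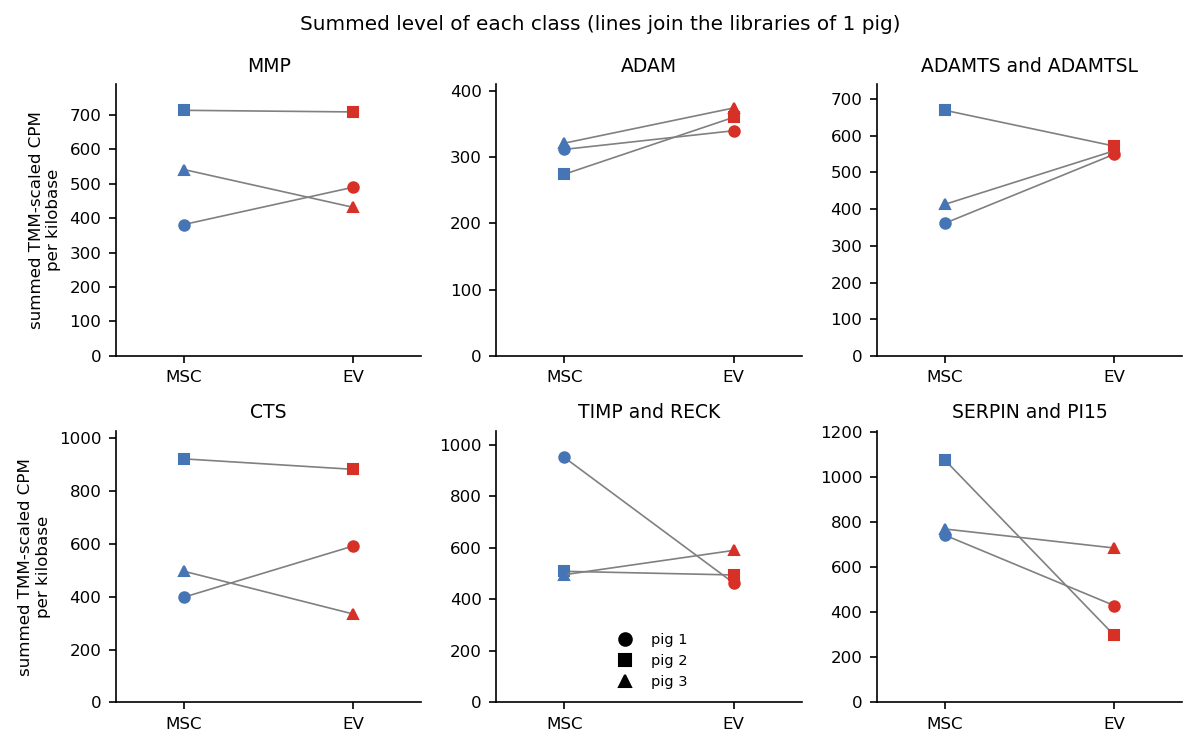
Summed TMM-scaled CPM per kilobase of each class by library (axes from 0), with lines that join the MSC and EV libraries of each pig. The serpin sums are lower in the EVs of every pig (298 to 684) than in any MSC library (742 to 1075), the ADAM sums are slightly higher (340 to 374 as against 274 to 321), and the other classes overlap.

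The members varied between pigs more than most entries did. The median SD of the log2 level among libraries of a group was 0.57 in EVs and 0.67 in MSCs, as against 0.32 and 0.43 over all entries tested. The pig with the highest MSC level was also the highest in EVs for 26 of the 54 members (48.1%), as against 38% of all entries, and the lowest pig was shared by 24 (44.4%), as against 37.4%. The groups did not overlap for 8 members higher in EVs (14.8%, 14.3% of all entries) and for 6 lower in EVs (11.1%, 13.6% of all entries), so these counts were close to those of the whole table. The EVs were above the MSCs in all 3 pigs for 15 members, or 27.8% (22.6% of all entries), and below in 11, or 20.4% (24.2% of all entries).

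Other genes of pericellular proteolysis were taken from a list of 64, of which 59 had an entry and 34 were tested, with a median log2 ratio of -0.23. Past the unadjusted limits, 1 was higher (2.94%, 5.55% of all entries) and 2 were lower (5.88%, 3.57% of all entries), and 0 passed adjustment by edgeR with or without the block. CPD, a carboxypeptidase of the trans-Golgi network, had 240, 124 and 202 CPM in MSCs and 302, 425 and 511 CPM in EVs, so that all EVs were above all MSCs (log2 ratio 1.13, SE 0.34, edgeR adjusted p = 0.241). Its call was lost without the EV library of pig 3 (0.95) or the MSC library of pig 2 (0.90). CD151, a tetraspanin that docks MMPs and integrins, had 43.6, 98.5 and 45.2 CPM in MSCs and 18.7, 14.3 and 22.0 CPM in EVs, all EVs being below all MSCs (log2 ratio -1.77, SE 0.39, edgeR adjusted p = 0.212, DESeq2 adjusted p = 0.00584). A2M, or alpha-2-macroglobulin, had 1.47, 10.4 and 0.424 CPM in MSCs and 0.760, 0.703 and 0.304 CPM in EVs, and its log2 ratio of -2.76 (SE 1.11) was -0.67 without the MSCs of pig 2. The call of A2M was also lost without the EV library of pig 1 (-2.97), pig 2 (-2.93) or pig 3 (-2.47).

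A further 4 genes of this list were over 2-fold apart without an unadjusted p-value under 0.05. These were SPOCK2 at -1.83 (SE 1.07) and RARRES1 at -1.22 (SE 0.56) on the log2 scale, and PAPPA2, which cleaves binding proteins of insulin-like growth factors, at 1.39 (SE 0.81) and the serine protease HTRA3 at 1.06 (SE 0.95). Only RARRES1 of the 4 had the same direction in all 3 pigs. The proprotein convertase FURIN, which activates membrane-type MMPs and ADAMs, had 166, 317 and 187 CPM in MSCs and 329, 504 and 382 CPM in EVs, all above the MSCs, with a log2 ratio of 0.86 (SE 0.33, edgeR adjusted p = 0.283). BMP1, the procollagen C-proteinase, was at -0.24 and its enhancer PCOLCE at -0.19 on the log2 scale, with SEs of 0.32 and 0.39. The plasminogen activators PLAU and PLAT, on which the serpins act, had 0 and 9 reads with spans covered by other entries, so no ratio of activator to inhibitor was formed.

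The labels were compared with marker genes. Stromal markers summed to 1435 to 2478 CPM in MSCs and 1866 to 2507 CPM in EVs, although COL1A2, COL3A1, DCN and THY1 were listed at 0 reads in all libraries. Smooth muscle and pericyte markers summed to 68.2 to 141 CPM in MSCs and 17.9 to 95.9 CPM in EVs, and endothelial markers to 10.0 to 16.9 CPM and 1.64 to 6.75 CPM, with VWF at 0. The smooth muscle actin ACTA2 and the endothelial adhesion protein PECAM1 were lower in EVs past the unadjusted limits, with log2 ratios of -4.10 (SE 0.74) and -1.71 (SE 0.54), and ACTA2 also passed the adjusted threshold in the blocked fit (edgeR adjusted p = 0.0116). PECAM1 alone made 9.67 to 16.65 CPM of the endothelial sum in MSCs, and KDR, TEK and CLDN5 had 1, 5 and 14 reads in all. CSPG4 made 40.7 to 113 CPM of the smooth muscle and pericyte sum in MSCs and 17.2 to 92.0 CPM in EVs, and MYH11 and CNN1 had 18 and 2 reads in all. Myeloid markers summed to 48.8 to 51.2 CPM in MSCs and 45.5 to 64.2 CPM in EVs, with AIF1, CD163 and LYZ at 0. CD14 alone made 44.9 to 46.6 CPM of that sum in MSCs and 42.1 to 60.2 CPM in EVs. PTPRC, CSF1R, TYROBP, FCER1G and ITGAM did not pass the filter on low counts. Platelet markers summed to 2.12 to 3.45 CPM and 1.10 to 3.24 CPM, with ITGA2B, PPBP and TREML1 at 0. Mesothelial and epithelial markers summed to 5.67 CPM in the EVs of pig 3, of which the epithelial adhesion protein EPCAM made 4.96, and to 0.0775 to 0.929 CPM in the other libraries. The EVs of pig 3 are also the library in which ADAMTS12 and MMP16 were high. Markers of EVs, led by the tetraspanin CD63, summed to 885 to 1019 CPM in EVs and 930 to 1943 CPM in MSCs. The part of other cell types in the levels of the proteases was not tested.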

How the data were processed

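mRNA was sequenced in 3 MSC and 3 EV libraries, 1 of each from every pig. The authors aligned the reads to the pig genome (susScr3, per the submitters' processing notes) with TopHat and deposited raw read counts per gene without normalization, and RPKM that the authors computed from these counts. The sources name both HTSeq and featureCounts as the counter and both a stranded and another TruSeq kit, so strand use in counting is not settled and overlapping genes cannot be told apart. Of 29661 rows, 3 shifted ones were left out. Symbols came from the table for 4336 rows and from the annotation for 11804 of 25322 Ensembl identifiers. The rule took 124 rows, and 26 symbols had several.

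Counts were tested with edgeR 4.0.16 in R 4.3.3 (TMM, filterByExpr, quasi-likelihood test). The thresholds were a fold over 2 and p under 0.05. Alternatives were DESeq2 1.42.0 and its size factors, no filter, limma 3.58.1 on log2(RPKM + 1) and log2(RPKM + 0.1), the pig as a block, removal of the trend on gene length, summed rows, and leaving out each library. With 3 libraries against 3, an exact permutation test of a lone gene cannot give p under 0.1 and was not used.

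Libraries were paired by the pig in the labels. Deviations from the group means correlated at 0.251, 0.384 and 0.408 between libraries of the same pig and at -0.364 to -0.038 between pigs. Genes given with their values in every library were those past the thresholds without the block, or adjusted with it, the 3 with the highest level per kilobase in each class, and a list of well-known members. The others are given by fold change, count or range, some with values. The members and lists were chosen with earlier results of these data known. Reads carry no molecular identifiers, so limits from read numbers cover counting error only. Small RNA, proteins and functional experiments were not analysed here. Of the members tested, 1 is counted in the totals but its own values are not reported here.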

Additional observations from a re-analysis of the deposited data

How the results depend on the processing

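Of the log2 ratios of the named genes under the alternatives, 459 kept their direction and their side of the limits, 40 no longer passed, 7 newly passed, and 26, of 13 genes, changed sign, 0 of them past the limits. Without each library the genes with such changes ranged from -0.137 to 0.095 (ADAM17), -0.265 to 0.164 (ADAM33), -1.022 to 1.037 (ADAMTS1), -0.216 to 0.258 (ADAMTS2), -0.036 to 0.733 (ADAMTS4), -0.284 to 0.423 (ADAMTS7), -0.453 to 1.26 (CTSB), -0.194 to 1.418 (CTSC), -0.657 to 0.663 (CTSD), -0.378 to 1.728 (MMP1), -0.26 to 0.084 (MMP19), -0.144 to 0.381 (SERPINF1) and -0.517 to 0.042 (TIMP1). ADAMTS2 was also at -0.326 with the trend on gene length removed, ADAM17 at 0.027 with the rows of a symbol summed, ADAMTS7 at 0.023 and 0.021 by limma on log2(RPKM + 1) and log2(RPKM + 0.1), and ADAM33 at 0.0 by the latter. With limma on log2(RPKM + 1), 4 members were higher and 2 lower by the unadjusted limits. Of the 12 calls, 5 were kept (PI15, MMP13, ADAMTS5, ADAMTS6 and SERPINE2), and MMP23B was newly called. Over the fits without a library, 6 to 9 members were higher and 1 to 6 lower, the fewest lower (1) without the EVs of pig 2. A setting chosen after seeing the data took only members whose entry overlaps no other, of which 29 were tested. Of these, 6 (20.7%) were higher and 1 (3.45%) was lower, where 5.55% and 3.57% of all entries were. The share among all entries without overlap was not computed.

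With the adjusted threshold, 0 members became 5 higher and 1 lower by DESeq2, and 5 higher and 1 lower with the pig as a replicate block. Leaving each pig out of the blocked fit, also chosen after seeing the data, gave 4, 4 and 5 members higher without pigs 1, 2 and 3. It gave 2, 1 and 2 lower. The share of all entries past the threshold was not computed for these fits, so these counts have no baseline. Over all entries, 0 became 230 higher and 175 lower by DESeq2, 61 and 75 with the block, 1 and 10 by limma on log2(RPKM + 1), 5 lower without the filter and 5 lower by limma on log2(RPKM + 0.1). By the unadjusted limits, 688 and 442 entries became 233 and 194 by limma on log2(RPKM + 1), and 511 to 948 higher and 270 to 607 lower without each library, the fewest lower without the EVs of pig 2.

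Of the other proteolysis genes, 0 were higher with the trend on gene length removed, 1 was lower by limma with either pseudocount, and 1 to 3 were higher and 1 to 3 lower without each library. The cause of these shifts was not tested. Depth limits the genes below the filter on low counts, such as MMP8, MMP12 and CTSK, which were not compared. It also leaves the folds of MMP13, MMP16, MMP27, PI15, SERPINB2 and A2M imprecise, since each had under 10 reads in 1 or more libraries.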
